A study of Mus musculus with 9 samples.

Results

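The heat shock protein and DnaJ chaperone genes were followed in mouse liver under high protein and high fat feeding. Members were taken by gene symbol, as every gene whose symbol starts with Hsp or with Dnaja, Dnajb or Dnajc. This rule found 73 of the 19938 genes with a value. By the known location of their products, 45 act in the cytosol or nucleus, 14 in or at the endoplasmic reticulum (ER) and 10 in mitochondria, and 4 were placed in none of these. Hsp90ab1 and Hspa1b also carry such symbols but are not analysed here.

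Livers came from male C57BL/6J mice, and each sample was a pool of RNA from 5 mice, hybridised to 1 array. High protein (HP) diets held 50% of energy as protein, against 15% in normal protein (NP) diets. High fat (HF) diets held 35% of energy as fat, against 10% in low fat (LF) diets. By the diet compositions in the paper, starch and sucrose were lower wherever protein or fat was higher. More protein or fat and less carbohydrate therefore cannot be told apart in these comparisons. HF-HP, LF-HP, HF-NP and LF-NP diets were each fed for 1 or 12 weeks, which gave 1 pool per diet and week, 4 HP and 4 NP in all. The labels give an age of 13 weeks at week 1 and 22 weeks at week 12. A reference pool, aged 12 weeks, was taken at week 0. Time on the diet and age rise together, so they cannot be told apart in comparisons between weeks. The labelled rise in age from 12 to 22 weeks is also shorter than 12 weeks of diet. All mice, the reference group included, had first had the LF-NP diet as a run-in. In the last week mice were moved to timed feeding, and they were killed after a measured meal.

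Chaperones hold unfolded proteins and help them fold. Members of the HSP70 family do so by cycles of ATP use, which DnaJ proteins (HSP40s) start and direct, while HSP90s finish selected clients, small heat shock proteins (Hspb genes) hold aggregating proteins, and the HSP60 and HSP10 pair forms the folding chamber of mitochondria. Heat shock factors raise the cytosolic and some mitochondrial members under proteotoxic stress, through heat shock elements in their promoters, and the unfolded protein response raises the ER members, through ER stress response elements. In the liver, which secretes most plasma proteins, ER chaperones carry a large folding load.

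The promoters are shown for 5 members on which the results turn, to set the stress element of each compartment beside its genes. Each stretch is the 250 bases before the start, written 5′ to 3′ on the gene's strand, from RefSeq on GRCm38.p6. Capitals mark a heat shock element pair (GAANNTTC or TTCNNGAA), a full element (a GAANNTTC followed after 2 bases by a further GAA, so that each full element also holds both pairs) or an ER stress response element (CCAAT and CCACG with 9 bases between them), searched on both strands.
Hspa1a (chr17:34972157-34972406, minus strand): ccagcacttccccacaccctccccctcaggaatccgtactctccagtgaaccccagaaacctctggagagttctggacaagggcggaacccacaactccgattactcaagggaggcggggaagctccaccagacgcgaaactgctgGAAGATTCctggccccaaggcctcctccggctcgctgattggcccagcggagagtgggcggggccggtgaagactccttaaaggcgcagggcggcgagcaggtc
Hspb1 (chr5:135887669-135887918, plus strand): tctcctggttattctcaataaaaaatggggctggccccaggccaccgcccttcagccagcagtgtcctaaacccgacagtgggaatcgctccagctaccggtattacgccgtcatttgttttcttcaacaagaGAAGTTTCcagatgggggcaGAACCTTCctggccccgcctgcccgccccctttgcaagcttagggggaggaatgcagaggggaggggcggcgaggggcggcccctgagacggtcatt
Hspa5 (chr2:34771840-34772089, plus strand): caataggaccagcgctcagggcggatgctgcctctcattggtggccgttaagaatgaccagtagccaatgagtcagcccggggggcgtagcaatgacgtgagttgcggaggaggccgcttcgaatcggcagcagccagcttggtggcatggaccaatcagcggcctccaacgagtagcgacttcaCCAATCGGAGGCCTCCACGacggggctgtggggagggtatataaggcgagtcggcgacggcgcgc
Hsp90b1 (chr10:86705445-86705694, minus strand): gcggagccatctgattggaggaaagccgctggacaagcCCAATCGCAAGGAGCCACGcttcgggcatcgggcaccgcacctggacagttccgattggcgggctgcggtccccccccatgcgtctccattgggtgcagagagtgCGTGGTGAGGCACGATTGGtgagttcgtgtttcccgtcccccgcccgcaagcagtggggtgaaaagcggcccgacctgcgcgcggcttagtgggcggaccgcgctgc
Hspe1 (chr1:55087898-55088147, plus strand): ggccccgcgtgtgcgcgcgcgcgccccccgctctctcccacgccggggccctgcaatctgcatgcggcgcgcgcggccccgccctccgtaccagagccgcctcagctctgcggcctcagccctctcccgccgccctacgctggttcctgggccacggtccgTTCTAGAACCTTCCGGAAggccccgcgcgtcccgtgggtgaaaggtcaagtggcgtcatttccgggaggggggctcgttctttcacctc

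Of the 73 members, 60 had a promoter in the table, with 77 starts between them, and the search covered 250 bases before to 50 bases after each start. The ER stress response element was found in 0.119% of all 32851 promoters of that length, and in 0.137% of the 27025 genes they belong to. Among the members it was found in 3 of 12 ER genes with a promoter, Hspa5, Hsp90b1 and Dnajc3, and in 0 of 38 cytosolic or nuclear genes. Hspa5 holds it from 65 to 47 bases before the start, and Hsp90b1 holds a pair of such matches, from 212 to 194 and from 107 to 89 bases before the start. The full heat shock element was found in 0.662% of these genes (0.603% of promoters) and in 4 of the 60 members, Dnajb6, Hspd1, Hspe1 and Hsph1. Hspd1 and Hspe1 lie head to head and share this stretch, so that the 2 overlapping matches printed for Hspe1 stand for both genes. The shorter pair is far less specific, at 15.1% of all promoters, and was found in 15 of the 60 members, Hspa1a and Hspb1 among them. A match of letters is a description of the stretch and not a site in use.

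Values are log2 signals from the robust multiarray analysis (RMA), in which a difference of 1 is a doubling. A probe set's signal depends on its probes, so signals were compared between pools and not between genes. All 14 ER and 10 mitochondrial members and 29 of 45 cytosolic or nuclear members lay above the median signal of all genes (5.85), which is given as a sign that they were measurable. Of 12 members known chiefly from germ cells or muscle, such as Hspb9 and Dnajb8, 1 lay above it. The 9 arrays correlated with each other at 0.988 to 0.993 over all genes, and their gene medians spanned 5.83 to 5.89. Mean signals of 7 of 7 hepatocyte markers lay between 12.51 and 13.88, and 0 of 4 testis and 0 of 3 pancreas markers exceeded the median of all genes. It was exceeded by 2 of 4 adipocyte, 2 of 5 muscle, 1 of 2 erythroid, 1 of 4 lymphocyte and 1 of 4 cholangiocyte markers. In bulk tissue, fewer cells of a type and less RNA per cell cannot be told apart.

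Most members moved little between diets. The gap between a member's highest and lowest pool had a median of 0.36 on the log2 scale, against 0.38 over all genes. It reached 1 for 2 members, Hspa1a (1.43) and Hspb1 (1.37), the stress-inducible HSP70 and the small heat shock protein Hsp25, where 2.52% of all genes reached it. A gap of 0.5 was reached by 18 members, 12 of them cytosolic or nuclear, 6 of the ER and 0 mitochondrial, beside 27.5% of all genes. The gap was 0.10 for Hspa8, the constitutive cytosolic HSP70. Its signal was 13.18, 13.21, 13.19 and 13.13 in the HF-HP pools of 1 and 12 weeks and the LF-HP pools of 1 and 12 weeks, against 13.23, 13.18, 13.16 and 13.16 in the matched NP pools. HP and NP pools overlapped, and the 4 HF pools had slightly higher signals than both LF-NP pools. The Hspa8 probe set numbered among those of the gene's own chromosome ran wider. It went from 12.88 in the LF-NP pool of 1 week to 13.09 in the HF-HP pool of 12 weeks.

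**Figure D1:**
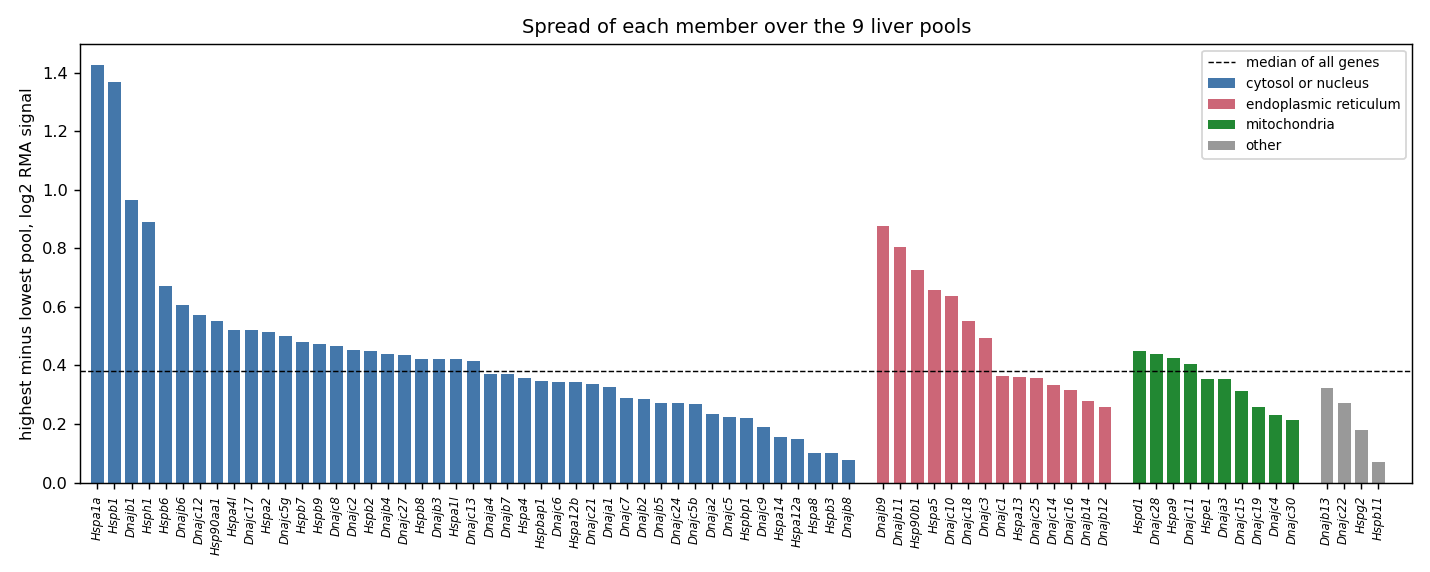
Bars give, for each of the 73 members, the highest minus the lowest of the 9 pools in log2 RMA signal, by compartment, and the dashed line is the median gap of all genes (0.38). Hspa1a and Hspb1 exceed 1, and none of the 10 mitochondrial members reaches 0.5.

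No member passed the test in any comparison. When protein, fat and week were fitted together to the 8 pools from the diets (limma, p-values adjusted over 19938 genes by Benjamini-Hochberg), 0 of 73 members had an adjusted p under 0.05 for HP minus NP, where 0.441% of all genes did. Without adjustment 7 of 73 members had p under 0.05, beside 10.3% of all genes. Of these 3 were higher in HP pools (4.59% of all genes) and 4 were lower (5.66%). The lowest adjusted p was that of Hspa9, at 0.211. For HF minus LF and for 12 weeks minus 1 week the counts of members were also 0 (0% and 0.00502% of all genes), with 4 and 9 members at an unadjusted p under 0.05, beside 3.33% and 7.71% of all genes. For fat, 3 of the 4 were higher in HF pools (1.8% of all genes) and 1 was lower (1.53%). Among the 3 was Dnajb6, by a dim probe set (mean 5.39). The brightest probe set it shares with Gm4247 was left out for its several symbols. That probe set had 10.53 and 10.60 in the HF-HP pools of 1 and 12 weeks, against 10.75 and 10.79 in the LF-HP pools. In the HF-NP pools it had 10.73 and 10.63, against 10.64 and 10.59 in the LF-NP pools. For week, 1 of the 9 was higher at 12 weeks (2.42%) and 8 were lower (5.3%). All values below are therefore differences that did not pass the test. Of the HP minus NP differences, 70 of 73 were under 0.25 in size, and their median SE was 0.074.

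By compartment, the HP minus NP medians lay close to 0, at −0.006 for the cytosolic and nuclear members, −0.028 for the ER members and 0.039 for the mitochondrial members, beside −0.004 over all genes. Positive differences were held by 20 of 45, 6 of 14 and 8 of 10 members. For HF minus LF the ER members had a median of 0.116, with 13 of 14 positive, beside 0.001 over all genes. The cytosolic median there was 0.015 and the mitochondrial one −0.010. For 12 weeks minus 1 week, 13 of 14 ER and 9 of 10 mitochondrial members were negative, with medians of −0.085 and −0.114, beside −0.034 for the cytosolic members and −0.011 over all genes. These are descriptions of the lists and not tests of them, and single pools moved them. The ER median for HF minus LF was 0.067 once the HF-HP pool of 12 weeks was dropped, while the mitochondrial one ran between −0.054 and 0.040 when 1 pool was left out, with a change of sign. Dropping the HF-HP pool of 12 weeks gave a mitochondrial HP minus NP median of 0.019, and dropping that of 1 week gave 0.088. The ER and mitochondrial medians for 12 weeks minus 1 week stayed negative, between −0.161 and −0.057 and between −0.170 and −0.070.

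**Figure D2:**
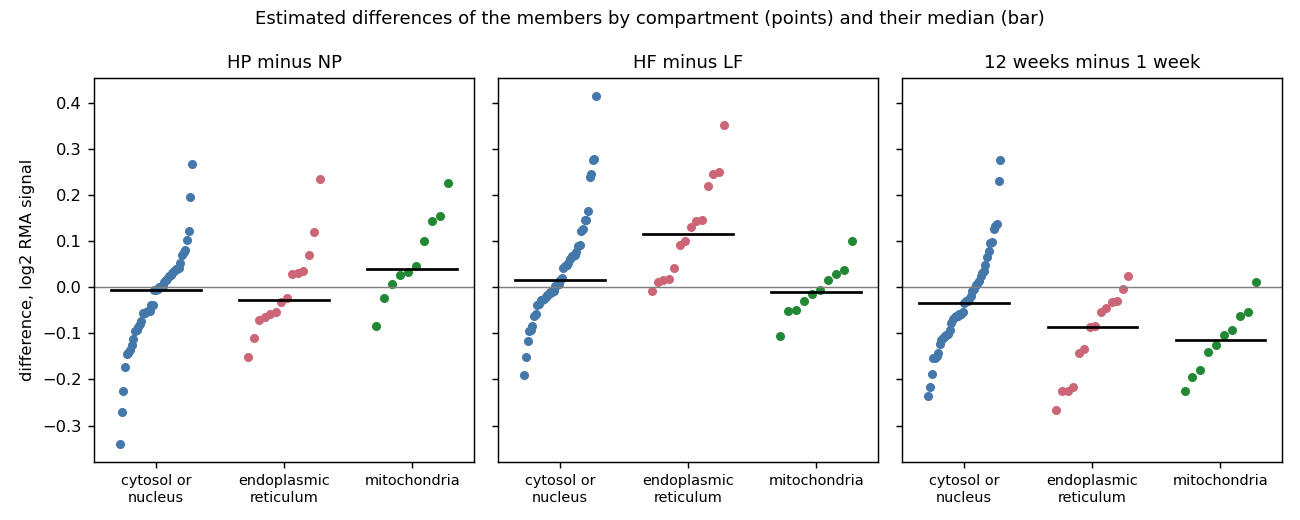
Each point is 1 member's estimated difference in log2 RMA signal, sorted within its compartment, and bars are medians, for HP minus NP, HF minus LF and 12 weeks minus 1 week. ER members lie mostly above 0 for HF minus LF (median 0.116), and ER and mitochondrial members mostly below 0 for 12 weeks minus 1 week.

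Among the mitochondrial members, 3 folding chaperones of the matrix, Hspa9, Hspd1 and Hspe1, had higher means in HP livers, by differences that did not pass the test. Hspa9, mortalin, the mitochondrial HSP70 that pulls in and folds imported proteins, had signals of 11.73 and 11.66 in the HF-HP pools of 1 and 12 weeks and 11.76 and 11.59 in the LF-HP pools, against 11.59 and 11.34 in the HF-NP pools and 11.56 and 11.34 in the LF-NP pools. HP exceeded NP in all 4 matched comparisons, although the lowest HP pool (11.588) fell just under the highest NP pool (11.593). Hspa9 averaged 11.68 ± 0.08 in HP pools and 11.46 ± 0.14 in NP pools (SD, 4 pools each), a difference of 0.23 (SE 0.06, 1.17-fold, limma adjusted p = 0.211).

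Hspd1, the HSP60 that forms the folding chamber, had signals of 11.52 and 11.36 in the HF-HP pools of 1 and 12 weeks and 11.40 and 11.28 in the LF-HP pools, against 11.42 and 11.17 in the HF-NP pools and 11.33 and 11.08 in the LF-NP pools. HP again exceeded NP in all 4 matched comparisons, while the ranges of HP and NP pools overlapped. The difference was 0.14 (SE 0.05, limma adjusted p = 0.412), and 0.09 (SE 0.06) with the probe set that is numbered among those of the gene's own chromosome. With that probe set HP exceeded NP in 3 of 4 matched comparisons, the LF diets of 1 week being the exception (11.078 in the LF-HP pool, against 11.097 in the LF-NP pool).

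Hspe1, the HSP10 lid of that chamber, had signals of 11.20 and 11.22 in the HF-HP pools of 1 and 12 weeks and 11.29 and 11.19 in the LF-HP pools, against 11.30 and 10.95 in the HF-NP pools and 11.05 and 10.98 in the LF-NP pools. The HF-NP pool of 1 week was the highest of these, and the other 3 NP pools lay below all 4 HP pools. Its difference was 0.15 (SE 0.08, limma adjusted p = 0.567). Dnajc19, a DnaJ protein of the import motor at the inner membrane, was higher in HP pools in all 4 matched comparisons by 0.08 to 0.12. Members above NP in all 4 comparisons numbered 4, namely Dnajc19, Hspa9, Hspb8 and Hspd1, beside 6.01% of all genes. Hspd1 leaves this list with the probe set of its own chromosome.

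Dnaja3 and Dnajc15, a matrix DnaJ and an inner membrane DnaJ, differed by 0.03 and 0.05 between HP and NP pools. Dnajc4, a mitochondrial DnaJ of less certain role, was lower in HP pools in all 4 comparisons, with a difference of −0.09. Of 11 other mitochondrial folding and protease genes, 0 had an unadjusted p under 0.05 for HP minus NP in limma, beside 10.3% of all genes. The largest of their differences was that of Lonp1, the matrix protease, at 0.25. Clpp, the proteolytic subunit of another matrix protease, had 0.16, and its unfoldase Clpx had −0.17.

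**Figure D3:**
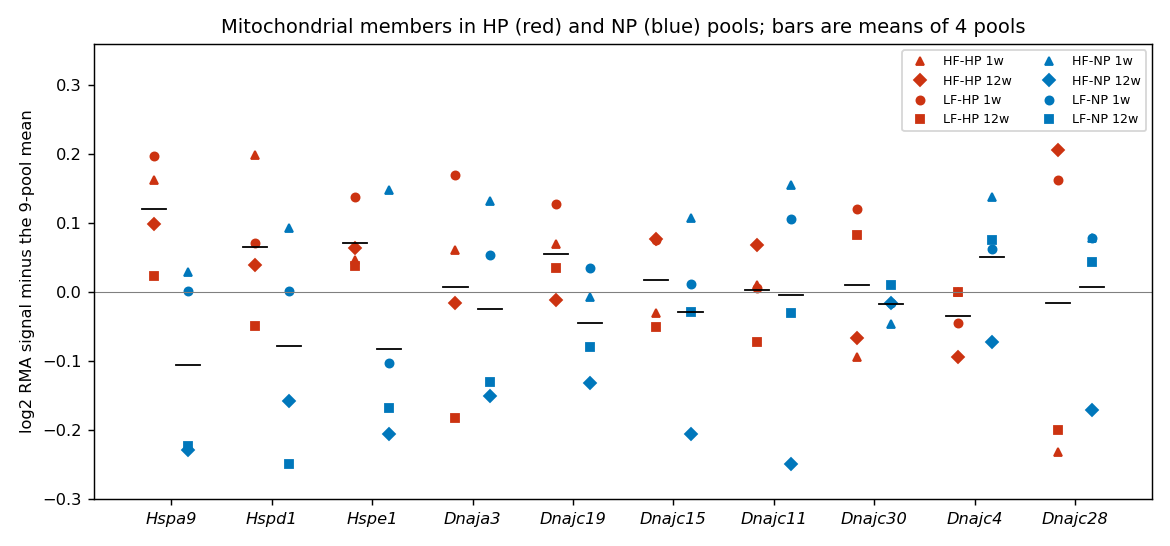
Points are the log2 RMA signals of 10 mitochondrial members in the 4 HP (red) and 4 NP (blue) pools, each less the gene's mean over 9 pools, and bars are means of 4 pools. Means of HP pools lie above those of NP pools for Hspa9, Hspd1, Hspe1 and Dnajc19, and NP pools of 12 weeks are the lowest points of Hspa9, Hspd1 and Hspe1.

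In the cytosol, Hspb8, a small heat shock protein that works with Bag3 in selective autophagy, was higher in HP pools in all 4 matched comparisons. Its signals were 10.86 and 10.78 in the HF-HP pools of 1 and 12 weeks and 10.86 and 10.62 in the LF-HP pools, against 10.65 and 10.59 in the HF-NP pools and 10.61 and 10.50 in the LF-NP pools. Only the LF-HP pool of 12 weeks overlapped the NP pools, and the reference pool was the lowest of all at 10.44. The difference was 0.20 (SE 0.06, limma adjusted p = 0.263), with 0.17 to 0.23 when any 1 pool was left out.

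Hspb6, the small heat shock protein Hsp20, ran the other way, with 8.81 and 8.69 in the HF-HP pools of 1 and 12 weeks and 8.56 and 8.66 in the LF-HP pools, against 8.89 and 8.88 in the HF-NP pools and 8.81 and 9.23 in the LF-NP pools. It was lower in HP pools in all 4 matched comparisons, as were Dnajc25, Dnajc4 and Hsp90aa1, 4 members beside 8.11% of all genes. Hsp90aa1 leaves this list with the probe set numbered among those of its own chromosome, which had 11.085 in the LF-HP pool of 1 week, against 11.075 in the LF-NP pool. The difference of Hspb6 was −0.27 (SE 0.10, limma adjusted p = 0.411) and −0.16 without the LF-NP pool of 12 weeks, its highest pool.

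Several stress-inducible cytosolic members had a low value in 1 pool, LF-HP at 12 weeks. This grouping was noticed after the values were seen, and it rests on 1 pool of 5 mice. Hspb1 had 8.38 in that pool, against 9.75 in the LF-NP pool of 12 weeks, and between 9.35 and 9.75 in the other 8 pools. The other 3 HP pools (9.73, 9.53 and 9.35) overlapped the NP pools (9.70, 9.53, 9.36 and 9.75). The fitted HP minus NP difference of −0.34 (SE 0.22, limma adjusted p = 0.701) was −0.07 without that pool.

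Hsph1, an HSP110 that exchanges the nucleotide of HSP70, had 8.91 in the LF-HP pool of 12 weeks, against 9.49 in the matched LF-NP pool, and no other pool was below 9.49. Hsp90aa1, the inducible cytosolic HSP90, had 10.83 there, against 11.26 in the matched NP pool. Dnajb1, the inducible HSP40, had 7.47, against 7.88. All 3 were at their lowest in this pool, as were Hspa4l, an HSP110 relative, and Hspa8, although the Hspa8 probe set of the gene's own chromosome was lowest in the LF-NP pool of 1 week. Without this pool the HP minus NP difference of Hsph1 turned to 0.04 and that of Dnajb1 to 0.18, where all pools had given −0.13 and 0.00, and that of Hsp90aa1 was −0.07 in place of −0.14. Of 11 heat-inducible members with a value, 6 were lowest in this pool, beside 16.4% of all genes, and 19 of all 73 members were.

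Hspa1a was not at its lowest in the LF-HP pool of 12 weeks, although it too lay below the matched LF-NP pool there. Its signals were 7.63 and 8.25 in the HF-HP pools of 1 and 12 weeks and 7.95 and 7.63 in the LF-HP pools, against 7.33 and 7.67 in the HF-NP pools, 7.46 and 7.93 in the LF-NP pools and 6.83 in the reference pool. The reference pool was the lowest, and HP exceeded NP in 3 of 4 matched comparisons, the LF diets of 12 weeks being the exception. The difference was 0.27 (SE 0.15, limma adjusted p = 0.651). It was 0.46 without the LF-HP pool of 12 weeks, but that pool was singled out because it went the other way, so the larger value carries no further weight. A brighter probe set that Hspa1a shares with Hspa1b was left out because it carries several symbols. It had 9.28 in the LF-HP pool of 12 weeks, against 9.83 in the LF-NP pool of 12 weeks and 9.09 in the reference pool.

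At least 0.25 below the matched LF-NP pool in the LF-HP pool of 12 weeks were 6 of the 11 heat-inducible members, Dnajb1, Hsp90aa1, Hspa1a, Hspa4l, Hspb1 and Hsph1, beside 12.4% of all genes. Of the 45 cytosolic or nuclear members 9 met this, and of the 10 mitochondrial members 0 did. Among 19 heat shock factor and co-chaperone genes it was met by 5, among them Hsf2, a heat shock factor, Stip1, which joins HSP70 to HSP90, and Ahsa1, which activates HSP90. In the same pool the mean signal of 5 Kupffer cell markers was 7.66, against 8.11 in the LF-NP pool of 12 weeks, and that of 7 hepatocyte markers was 13.39, against 13.32, and their part in the result was not tested.

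Among the 19 heat shock factor and co-chaperone genes, Hsf2 was the only heat shock factor, and Hsf1 is not analysed here. Over the 19 genes, the HP minus NP differences had a median of −0.011, with 9 positive and 10 negative, and 3 had an unadjusted p under 0.05, beside 10.3% of all genes. They were spread between 0.40 (SE 0.21) for Fkbp5, a co-chaperone of steroid receptor complexes, and −0.39 (SE 0.13) for Hsf2. The value of Fkbp5 was 9.84 in the LF-HP pool of 1 week, against 8.72 in the matched LF-NP pool, and lay between 8.09 and 8.85 in the other diet pools. Over 14 genes of the TRiC chaperonin and prefoldin, which fold actin and tubulin, the median was 0.008, with 1 at an unadjusted p under 0.05, Vbp1 at 0.20 (SE 0.08), a prefoldin subunit. Cct4 and Pfdn5, subunits of TRiC and prefoldin, had 0.06 and 0.05. The cold-inducible genes Cirbp and Rbm3 had HP minus NP differences of −0.005 and −0.016.

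**Figure D4:**
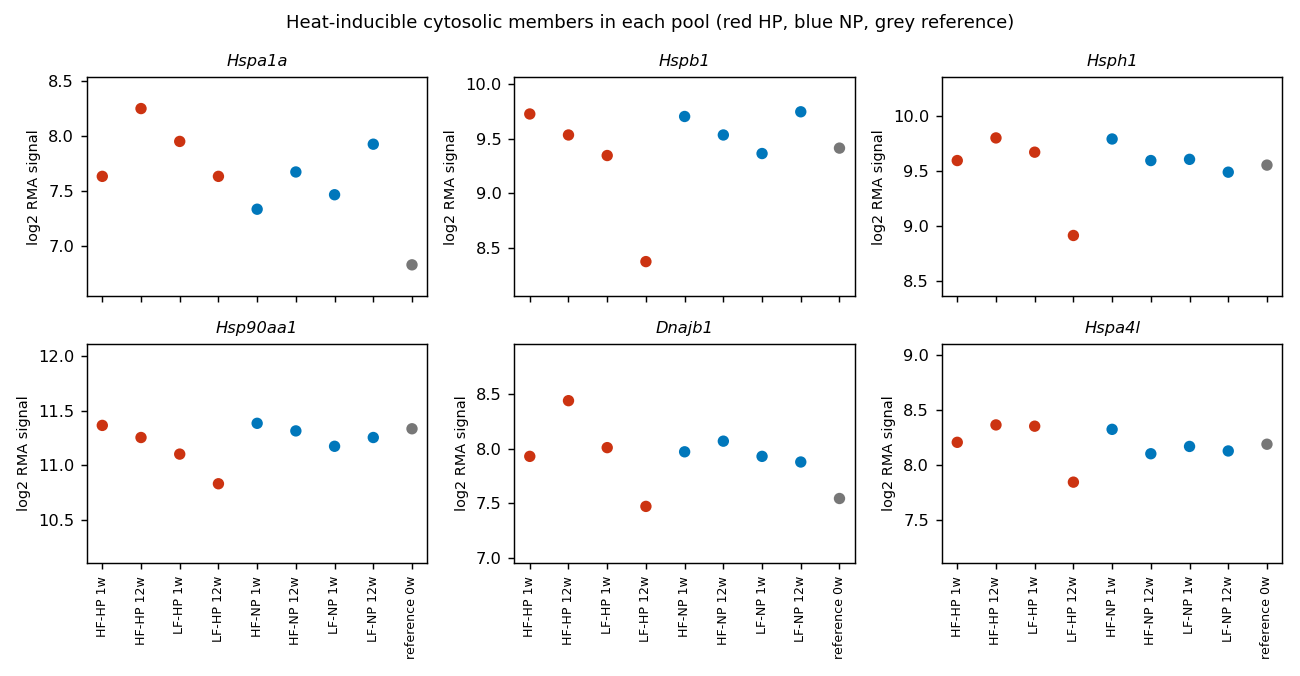
Points are the log2 RMA signals of 6 heat-inducible cytosolic members in each of the 9 pools, with axes of equal height. The LF-HP pool of 12 weeks is the lowest of 9 for Hspb1 (8.38), Hsph1 (8.91), Hsp90aa1 (10.83), Dnajb1 (7.47) and Hspa4l (7.84), and for Hspa1a the reference pool is the lowest (6.83).

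Under high fat the cytosolic members were mixed. Hsp90aa1 was higher in HF livers in all 4 matched comparisons, with 11.37, 11.26, 11.38 and 11.32 in the HF-HP pools of 1 and 12 weeks and the HF-NP pools of 1 and 12 weeks, against 11.10, 10.83, 11.18 and 11.26 in the LF pools matched to them. The groups met at 11.2553, an exact value repeated in the HF-HP and LF-NP pools of 12 weeks, and were otherwise apart. The HF minus LF difference was 0.24 (SE 0.08, limma adjusted p = 0.999), and 0.17 without the LF-HP pool of 12 weeks. The differences of Hspb1, Dnajb1 and Hsph1, 0.42, 0.28 and 0.28, became 0.15, 0.10 and 0.11 without that pool. HF exceeded LF in all 4 matched comparisons in 6 members, Dnajb5, Dnajc25, Hsp90aa1, Hspa13, Hspb8 and Hspd1, beside 3.47% of all genes. It was below LF in all 4 in 3 members, Dnajc19, Dnajc30 and Hspb7, beside 3.62%.

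Among 4 ER members, picked out after their values were seen, the HP minus NP difference ran in opposite directions on the HF and LF diets. Hspa5, BiP, the ER HSP70 and master sensor of unfolded proteins, had 12.58 and 12.39 in the HF-HP pools of 1 and 12 weeks, against 12.80 and 12.66 in the HF-NP pools. On the LF diets it had 12.63 and 12.27 in the HP pools, against 12.52 and 12.15 in the NP pools. So HP livers were lower by 0.22 and 0.27 on the HF diets, and higher by 0.11 and 0.12 on the LF diets. The reference pool, at 12.69, lay near the HF-NP pools.

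Hsp90b1, GRP94, the ER HSP90, had 11.71 and 11.54 in the HF-HP pools of 1 and 12 weeks, against 11.99 and 11.84 in the HF-NP pools. In the LF-HP pools it had 11.78 and 11.51, against 11.54 and 11.26 in the LF-NP pools. The HP minus NP differences were −0.28 and −0.31 on the HF diets and 0.25 and 0.25 on the LF diets, nearly alike at both weeks. Their own difference, HF minus LF, was −0.54 (SE 0.11, unadjusted p = 0.00254), the lowest p of any member for this interaction, but with an adjusted p of 0.556 in limma.

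Dnajb11, a soluble DnaJ partner of BiP, had 8.92 and 8.89 in the HF-HP pools of 1 and 12 weeks, against 9.29 and 9.05 in the HF-NP pools. The LF-HP pools had 9.00 and 8.77, against 8.88 and 8.49 in the LF-NP pools. Dnajb9, a DnaJ that represses the sensor Ire1 and aids ER-associated degradation, had 10.74 and 10.76 in the HF-HP pools, against 10.80 and 11.18 in the HF-NP pools. In the LF-HP pools it had 10.89 and 10.45, against 10.30 and 10.43 in the LF-NP pools, where the 12 week gap was 0.02. The interactions were −0.46 (SE 0.14) for Dnajb11, −0.54 (SE 0.25) for Dnajb9 and −0.36 (SE 0.13) for Hspa5, with adjusted p of 0.687, 0.718 and 0.706 in limma. Dropping the LF-HP pool of 12 weeks gave −0.85 for Dnajb9, dropping that of 1 week gave −0.24, and that for Hsp90b1 ran between −0.59 and −0.49 when any 1 pool was left out.

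For the interaction of protein with fat, 0 members and 0% of all genes had an adjusted p under 0.05. At an unadjusted p under 0.05 were 7 members, beside 7.02% of all genes, with 5 of them negative, beside 2.23% of all genes, and 2 positive, beside 4.79%. The pattern itself, HP above NP at both weeks on LF and below at both weeks on HF, was held by 4 of 14 ER members, 3 of 45 cytosolic or nuclear members and 1 of 10 mitochondrial members, beside 3.41% of all genes. The opposite pattern was held by 3 members, Dnajc12, Dnajc6 and Hspg2, beside 6.6% of all genes. The 4 ER members are 4 of the 8 members listed as inducible by the unfolded protein response, and the other 4 had interactions of −0.19 (Dnajc3), 0.12 (Dnajc10), 0.13 (Dnajb14) and 0.05 (Hspa13). Over all 14 ER members the median interaction was 0.035, with 8 positive, beside 0.031 and 56.6% positive over all genes. The 3 cytosolic or nuclear members with the pattern were Dnaja1, Dnaja4 and Dnajc17. Dnajc17 had an interaction of −0.48 (SE 0.15, limma adjusted p = 0.687), of a size with those of the 4 ER members, and Dnaja4 had −0.21 (SE 0.11). Dnaja1, a cytosolic HSP40, had −0.42 (SE 0.11), but 0.08 (SE 0.23) with the probe set numbered among those of its own chromosome.

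Of 23 ER folding genes outside the family, 8 held the pattern, namely Canx, Creld2, Hyou1, Manf, Pdia3, Pdia4, Pdia6 and Sdf2l1. Creld2, an ER stress-inducible disulphide isomerase, had 10.49 and 10.22 in the HF-HP pools of 1 and 12 weeks, against 11.001 and 10.87 in the HF-NP pools. In the LF-HP pools it had 10.52 and 9.88, against 10.20 and 9.69 in the LF-NP pools. The interaction was −0.84 (SE 0.19, limma adjusted p = 0.582) for Creld2, −0.65 (SE 0.21) for Sdf2l1, a partner of BiP and Dnajb11, and −0.56 (SE 0.13) for Pdia3, an isomerase of glycoproteins. Over the 23 genes the median was −0.19, with 19 negative. Over all genes it was 0.031, with 8654 of 19938 negative.

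Marker levels moved with this comparison too. The median interaction was 0.65 for the 5 Kupffer cell markers and 0.29 for the 5 endothelial markers, of the opposite sign to those of the 4 ER members above, and −0.10 for the 7 hepatocyte markers. The mean signal of the Kupffer cell markers ranged from 7.44 to 8.14 in HP pools and from 7.69 to 8.11 in NP pools. Their part in the result was not tested.

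**Figure D5:**
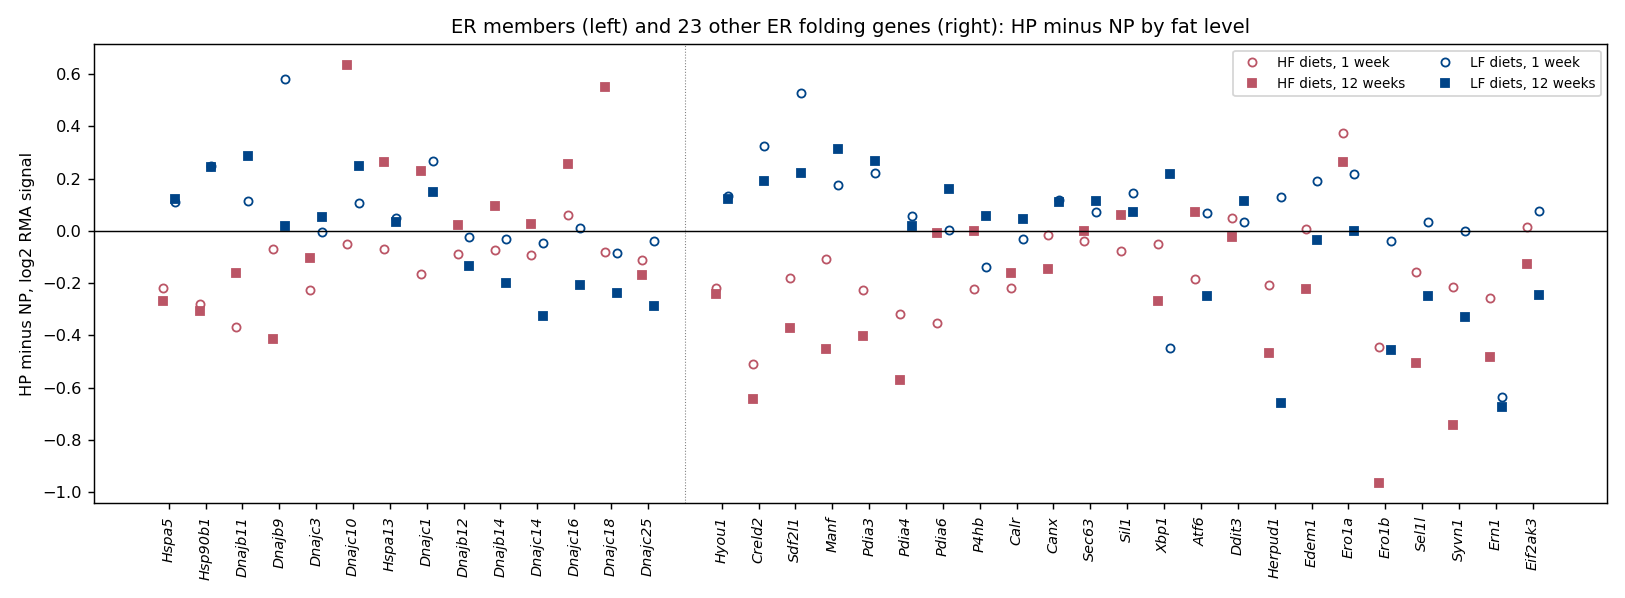
Points are HP minus NP differences in log2 RMA signal on HF diets (red) and LF diets (blue) at 1 week (open) and 12 weeks (filled), for 14 ER members and 23 other ER folding genes. Hspa5, Hsp90b1, Dnajb11, Dnajb9, Hyou1, Creld2, Sdf2l1, Manf, Pdia3, Pdia4, Pdia6 and Canx have their blue points above 0 and red points below 0.

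Seen along the fat axis, the same values placed the HF-NP livers above the LF-NP livers of the same week. The reference pool was also on the LF-NP diet. It lay between the HF-NP pools of 1 and 12 weeks for Hspa5 (12.69), Hsp90b1 (11.85) and Dnajb11 (9.27). For Dnajb9 the reference pool (10.56) lay below both HF-NP pools and above the LF-NP pools of 1 and 12 weeks. HF exceeded LF at both weeks on NP diets in 7 of 14 ER members, 6 of the 8 unfolded protein response members and 15 of 23 other ER folding genes, beside 17.6% of all genes. The HF minus LF differences on NP diets at 1 and 12 weeks were 0.29 and 0.52 for Hspa5, 0.45 and 0.58 for Hsp90b1 and 0.50 and 0.75 for Dnajb9. On HP diets they were −0.04 and 0.12, −0.08 and 0.03, and −0.15 and 0.31. The LF-NP pool of 12 weeks was the lowest of 9 for Hspa5, Hsp90b1, Dnajb11 and Dnajc3 and for 9 of 23 other ER folding genes, beside 8.69% of all genes.

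The other 10 ER members did not hold the pattern of opposite signs. Dnajc10, ERdj5, a disulphide reductase of ER-associated degradation, had 7.06 and 7.32 in the HF-HP pools of 1 and 12 weeks and 7.001 and 6.97 in the LF-HP pools, against 7.11 and 6.69 in the HF-NP pools and 6.89 and 6.73 in the LF-NP pools. Its HP minus NP difference was 0.23 (SE 0.11, limma adjusted p = 0.516). The matched differences ran between 0.64 on HF diets at 12 weeks and −0.05 on HF diets at 1 week. Its interaction with week, 12 weeks minus 1 week, was 0.41 (SE 0.16), and it was the 1 member with an unadjusted p under 0.05 for the interaction of protein with week, beside 2.62% of all genes (1.46% positive and 1.16% negative), where 0 members and 0% of all genes passed the adjusted threshold. Dnajc8, a nuclear DnaJ of the spliceosome, had an interaction with week of 0.41 (SE 0.18). Dnajc1, an ER membrane DnaJ, had an HP minus NP difference of 0.12 (SE 0.08).

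Dnajc25, a membrane DnaJ, had 7.92 and 7.89 in the HF-HP pools of 1 and 12 weeks and 7.89 and 7.70 in the LF-HP pools, against 8.03 and 8.06 in the HF-NP pools and 7.92 and 7.99 in the LF-NP pools. It was the 1 member with every HP pool below every NP pool, beside 2.91% of all genes, by a margin between 7.919 and 7.924, and 0 members had every HP pool above every NP pool, beside 1.88%. The difference was −0.15 (SE 0.06, limma adjusted p = 0.454).

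Among the 23 other ER folding genes, the HP minus NP differences had a median of −0.070, with 6 positive and 17 negative. Ern1, the sensor Ire1, had 9.05 and 8.89 in the HF-HP pools of 1 and 12 weeks and 8.84 and 8.85 in the LF-HP pools, against 9.31 and 9.37 in the HF-NP pools and 9.47 and 9.53 in the LF-NP pools. Every HP pool lay below every NP pool, with a difference of −0.51 (SE 0.08, limma adjusted p = 0.052), just short of the threshold. Ero1b, an oxidase that recharges disulphide isomerases, differed by −0.48 (SE 0.14), and Syvn1, the ubiquitin ligase of ER-associated degradation, by −0.32. Of the 23 genes 0 passed the test, beside 0.441% of all genes. Without adjustment 5 had p under 0.05, beside 10.3% of all genes, namely Ern1, Ero1b, Herpud1 and Syvn1 with a negative and Ero1a with a positive difference.

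Between weeks, the members of the ER and mitochondria were mostly lower after 12 weeks, when the mice were also older. Dnaja3, a DnaJ partner of mortalin, had 9.76, 9.59, 9.62 and 9.64 in the 12 week pools of the HF-HP, LF-HP, HF-NP and LF-NP diets, against 9.83, 9.94, 9.90 and 9.82 in the 1 week pools. Every 12 week pool lay below every 1 week pool, as they did for the cytosolic Dnaja2, 2 members beside 2.10% of all genes. The difference was −0.22 (SE 0.06, limma adjusted p = 0.564) for Dnaja3 and −0.14 (SE 0.06, limma adjusted p = 0.609) for Dnaja2.

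Hspa5, Hsp90b1, Hspa9 and Hspd1 were lower at 12 weeks on all 4 diets, as were 14 of 73 members, beside 8.85% of all genes. Differences between 12 weeks and 1 week were −0.27 (SE 0.09) for Hspa5, −0.23 (SE 0.07) for Dnajc3, the inhibitor of the kinase Perk, −0.20 (SE 0.05) for Hspd1 and −0.18 (SE 0.06) for Hspa9. Adjusted p in limma was 0.576, 0.576, 0.564 and 0.576. Dnajc12, a DnaJ protein that assists aromatic amino acid hydroxylases, was higher at 12 weeks on all 4 diets, with 6.84, 6.60, 6.67 and 6.72 in the 12 week pools of the HF-HP, LF-HP, HF-NP and LF-NP diets, against 6.53, 6.44, 6.33 and 6.60 in the 1 week pools. Its difference was 0.23 (SE 0.08, limma adjusted p = 0.591), and 3 of 73 members were higher on all 4 diets, beside 5.35% of all genes.

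Against the reference pool there was 1 array on each side, so these are values with no test. The reference pool was the lowest of 9 for 8 members, Hspa1a and Hspb8 among them, beside 10.2% of all genes. Relative to it, the median differences of the 14 ER members at 12 weeks were −0.01 for HF-HP, −0.23 for LF-HP, −0.04 for HF-NP and −0.11 for LF-NP. In the LF-HP pool 11 of the 14 were lower, beside 9482 of 19938 genes. Over all genes the median was 0 in each of these pools. At 1 week the ER medians were 0.00 for HF-HP, −0.02 for LF-HP, 0.12 for HF-NP and −0.02 for LF-NP. The mitochondrial members had medians at 12 weeks of 0.03 for HF-HP, −0.04 for LF-HP, −0.21 for HF-NP and −0.06 for LF-NP. In the HF-NP pool 10 of 10 were lower than in the reference pool, beside 9651 of 19938 genes. The cytosolic medians at 12 weeks lay between −0.02 and 0.05.

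The 4 members outside the compartments moved little. Hspg2 encodes perlecan, a matrix proteoglycan that carries the symbol but is no chaperone, and Hspb11 encodes a subunit of intraflagellar transport. Their HP minus NP differences were 0.02 and 0.03. Dnajc22, a membrane DnaJ, had −0.13 (SE 0.06, limma adjusted p = 0.542), and Dnajb13, of sperm and motile cilia, had 0.003 at a dim signal.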

How the data were processed

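Liver RNA of 9 pools was measured on Affymetrix Mouse Gene 1.0 ST arrays, 1 array a pool. The deposited values are log2 signals that the authors made with RMA, that is background correction, quantile normalisation and summarisation per probe set. No further normalisation was applied. There are no counts in array data, so precision rests on how many arrays there are. Of 35556 probe sets, 21789 had 1 symbol in the platform annotation, 1621 had several and 12146 none. Probe sets with 1 symbol were kept, and the brightest per gene was used (19938 genes, no filter on level). For 6 members (Dnaja1, Hsp90aa1, Hspa8, Hspb1, Hspd1 and Hspe1) the brightest probe set is numbered among those of another chromosome, as inferred from neighbouring probe set numbers, and any part of related copies in its signal was not tested.

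limma 3.58.1 in R 4.3.3 fitted protein, fat and week over the 8 diet pools (4 residual degrees of freedom), with interactions as 1 further term. p-values were adjusted over all genes by Benjamini-Hochberg, with a threshold of 0.05, and the fit was tested on simulated data. Each pool mixes 5 mice, and there is 1 pool per diet and week, so no pool is repeated. SEs and p-values therefore measure how far pools depart from the fitted sum of terms, any interaction left out of the fit included. They do not measure spread between mice or between like pools. Members and lists were chosen with earlier results of these data known. Named genes are any gene at an adjusted p under 0.05, the 5 members per compartment with the largest HP minus NP difference, a fixed list of known chaperones, the 5 members with the largest fat and week differences, the 10 brightest, the 3 with the largest gaps in the HP minus NP difference between fat levels and between weeks, and the 3 genes of each companion list with the largest HP minus NP difference. Other genes in the text (Dnaja2, Dnaja4, Dnajc17, Hspa4l, Dnajb6, Stip1, Ero1a, Herpud1 and the 8 ER folding genes of the fat pattern among them) were named after their values were seen. Alternatives changed the probe set, gene filter, variance trend, weights, centring, normalisation, covariates, blocks and pools.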

Additional observations from a re-analysis of the deposited data

Results flagged for a closer look

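For 7 of the members named by the rules above, the HP minus NP difference had one sign at both weeks on HF diets and the opposite sign at both weeks on LF diets. The interaction, HF minus LF, was −0.54 for Hsp90b1, −0.54 for Dnajb9, −0.46 for Dnajb11, −0.42 for Dnaja1 and −0.36 for Hspa5, and it was positive, at 0.32 for Dnajc12 and 0.11 for Hspg2. The interaction term was tested in each case, and adjusted p in limma was between 0.556 and 0.802.

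In 4 cases the gap between 1 HP pool and the other 3 was large for the range of the 4 pools, as chance gives in about 1 in 20 groups of untied values. Dnajc14, an ER membrane DnaJ, had 8.05 in the LF-HP pool of 12 weeks, where the other HP pools had 8.295 to 8.303. Dnajc25 had 7.70 in the same pool, where the others had 7.886 to 7.919. Dnajc5g, a dim germ cell member, had 3.01 in the LF-HP pool of 1 week, where the other 3 were listed at 3.22. Hspb11 had 5.02 in the HF-HP pool of 1 week, where the other 3 were listed at 5.03, a gap under 0.01. In Dnajc5g and Hspb11 the other 3 pools hold 1 repeated value, so that any gap is counted and the 1 in 20 does not apply. In Dnajc14 the HF-HP pools of 1 and 12 weeks share the value 8.2954, so the 1 in 20 does not apply there either.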

How the results depend on the processing

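No paired analysis by replicate number was possible because the labels give none, but HP and NP pools of the same fat level and week were also fitted as blocks. Under every alternative run, 0 members passed an adjusted p under 0.05 in the comparisons tested. Counts at an unadjusted p under 0.05 moved more. For HP minus NP (7 members) the count was 4 with arrays centred or with matched pools as blocks, 2 on HF pools alone, 1 on 12 week pools alone and 3 to 8 with 1 pool left out. It was 0 to 7 for HF minus LF (4 members), 3 to 15 for the week (9), 4 to 9 for protein by fat (7) and 0 to 7 for protein by week (1) with 1 pool left out. Array weights, added after seeing the data, gave 8 for HF minus LF and 2 for protein by week, which had 2 with above-median genes, 3 after a repeated quantile normalisation and 2 with the dimmest probe set. The median HP minus NP difference of the ER members, −0.028, was −0.0849 to 0.0357 with 1 pool left out and 0.0335 on LF pools alone. The median week difference of the cytosolic members, −0.034, was −0.0640 with above-median genes, −0.0631 with array weights and −0.0735 to −0.0249 with 1 pool left out. Against the reference pool, centring gave cytosolic medians of −0.0516 (HF-HP, 1 week), −0.0359 (LF-NP, 12 weeks), −0.0626 (LF-HP, 12 weeks) and −0.0410 (HF-NP, 12 weeks). With the LF-NP pool of the same week as baseline the medians were 0.0157 (HF-NP, 1 week, cytosol), 0.0281 (LF-HP, 12 weeks, ER), −0.0447 (HF-NP, 12 weeks, mitochondria) and 0.217 (HF-HP, 12 weeks, ER). The interaction of Dnaja1 reversed to 0.0824 with the dimmest probe set or that of its own chromosome, a choice added after seeing the data. Ern1, at an adjusted p of 0.052, passed in 7 alternatives. The causes were not tested. Some dim and some bright probe sets repeat exact values over pools. Hsp90b1, for example, had 11.5362 in both the LF-NP pool of 1 week and the HF-HP pool of 12 weeks. Having 1 pool per diet and week also limits what can be seen.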
